A study of Mus musculus with 12 samples.

Results

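The immediate early genes described here are 10 genes, Fos, Fosb, Jun, Junb, Jund, Egr1, Ier2, Atf3, Nr4a1 and Dusp1, taken by symbol from an expression table of 20457 genes. All 10 were in the table. The table holds mouse bone marrow hematopoietic stem cells of strain C57BL/6, sorted by surface IL27RA, one chain of the receptor that binds the cytokine IL27. There were 4 groups of 3 libraries, namely old IL27RA+ and old IL27RA- cells from mice of 28 months, and young IL27RA+ and young IL27RA- cells from mice of 2 months. No genetic change or treatment is labelled in any group, and each library held 50 cells amplified with Smart-Seq2, which copies whole transcripts and adds no molecular identifiers. The labels do not say whether replicate libraries are separate mice, so every p-value rests on the spread between these samples, and that spread may be technical. For old IL27RA- replicate 1 the source name says young but the title and the stated age of 28 months do not, and the library was kept in the old group.

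Immediate early genes are transcribed within minutes of a signal such as a growth factor, a cytokine, stress or tissue handling, from factors that already sit in the cell, and their mRNAs are short-lived. Fos and Jun proteins pair into the transcription factor AP-1, which binds the TGANTCA motif, and Egr1 is a zinc finger transcription factor induced by the same MAP kinase pathway. Egr1 and Nr4a1 are known in mouse hematopoietic stem cells as factors that restrain proliferation. Dusp1 is a phosphatase that switches MAP kinases off again. In a library of 50 cells, a few strongly induced cells and a weak signal in many cells cannot be told apart, nor can fewer cells of a type and less RNA per cell.

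The promoters of Fos, Junb, Dusp1 and Jun are shown because the first 3 were highest in the same library of every group and Jun was not, as described further on. Some of those margins were small, and a link between promoter letters and the shared libraries was not tested. Each sequence is the 250 bases before the gene's annotated start on its own strand, from RefSeq on build GRCm38.p6. The promoter table used here held 8 of the 10 genes, and the promoters of Egr1 and Ier2 were not looked at. Capitals mark TGACG, which is the half-site of the cyclic AMP response element, together with the full element TGACGTCA in Dusp1, TGACATCA in Jun and the TATA box core TATAA in Fos.
Fos, chr12:85473640-85473889, plus strand: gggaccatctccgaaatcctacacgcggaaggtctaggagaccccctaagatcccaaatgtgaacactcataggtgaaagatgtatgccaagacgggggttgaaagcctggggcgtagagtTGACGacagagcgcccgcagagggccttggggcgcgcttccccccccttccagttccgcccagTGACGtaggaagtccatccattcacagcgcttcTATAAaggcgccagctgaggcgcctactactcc
Junb, chr8:84978749-84978998, minus strand: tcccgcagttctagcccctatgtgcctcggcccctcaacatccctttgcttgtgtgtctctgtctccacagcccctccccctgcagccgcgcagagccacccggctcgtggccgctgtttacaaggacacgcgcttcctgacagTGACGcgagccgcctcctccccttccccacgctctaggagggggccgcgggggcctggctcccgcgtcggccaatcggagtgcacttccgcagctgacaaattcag
Dusp1, chr17:26508473-26508722, minus strand: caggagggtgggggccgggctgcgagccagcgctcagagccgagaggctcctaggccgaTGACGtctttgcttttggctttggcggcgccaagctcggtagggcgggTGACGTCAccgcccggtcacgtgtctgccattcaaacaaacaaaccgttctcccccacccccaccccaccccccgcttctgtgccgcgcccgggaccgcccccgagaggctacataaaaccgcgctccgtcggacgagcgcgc
Jun, chr4:95052223-95052472, minus strand: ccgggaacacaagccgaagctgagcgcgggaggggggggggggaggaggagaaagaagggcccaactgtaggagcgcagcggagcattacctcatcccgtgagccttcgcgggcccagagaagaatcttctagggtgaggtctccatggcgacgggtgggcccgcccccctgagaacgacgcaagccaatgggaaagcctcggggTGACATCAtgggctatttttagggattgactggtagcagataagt
On either strand, TGACG lay in the window of 6 of the 8 genes (Fos, Fosb, Junb, Atf3, Nr4a1 and Dusp1), against 17.8% of 32851 mouse promoters. The full element TGACGTCA, which holds TGACG on both strands, lay only in Dusp1 among the 8, at bases -143 to -136 from the start, and in 1.55% of promoters. Jun held TGACATCA, the AP-1-like element known from its promoter, at bases -45 to -38, and 2.93% of promoters held these letters. No window of the 8 genes held TGANTCA, which 6.75% of promoters did, or the CArG box of serum response factor, which 1.47% did. Elements further upstream than these 250 bases were not searched for, so their absence from the window does not mean absence from the gene. TATAA lay in Fos at bases -33 to -29 and in 22.8% of promoters. A match describes letters and not a used site.

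Libraries held 11.67 to 24.15M reads in genes, with means of 15.59 ± 1.72M in old IL27RA+, 15.34 ± 2.53M in old IL27RA-, 13.87 ± 2.43M in young IL27RA+ and 21.7 ± 2.53M in young IL27RA- libraries (SD, n = 3 each). Values below are normalized counts, which are read counts divided by the library's size factor. The limit that a count of 0 allows, 3 reads, was 1.93 to 3.77 normalized counts, for counting error only. All 12 stem cell markers checked, among them Kit, Procr and Mecom, were detected in every group, with summed levels of 72038 to 80636 normalized counts in old IL27RA+, 87111 to 100783 in old IL27RA-, 76006 to 80471 in young IL27RA+ and 78539 to 94525 in young IL27RA- libraries. Old IL27RA- replicate 1 stood apart by Igkc, an antibody light chain gene, with 312300 normalized counts against 18.8 to 248 in the other libraries. Differences below are in log2(normalized count + 1), a scale on which changes of low genes look smaller, and come from limma over 14803 genes with at least 3 of 12 libraries at 10 or more on the linear scale, with p-values adjusted by the Benjamini-Hochberg method. Of the 10 genes, 9 passed that filter and Atf3 did not.

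Levels of these genes can be compared with each other only per kilobase of annotated exon. Highest was Ier2, an immediate early gene coding for a nuclear protein, at a median of 2412 normalized counts per kb over the 12 libraries, with a range of 1568 to 3093. Junb followed at a median of 550 per kb (391 to 1262), then Egr1 at 254 (118 to 1688), Jun at 176 (5.34 to 742), Dusp1 at 154 (89.9 to 474) and Jund at 78.2 (42.9 to 225). The range of Ier2 did not overlap that of Junb, whereas Junb, Egr1, Jun and Dusp1 overlapped their neighbours in this order. Nr4a1 and Fos had medians of 18.8 and 15.3 per kb, and each was at 0 in at least 1 library. Fosb had a median of 0.481 per kb and Atf3 of 0.

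**Figure D1:**
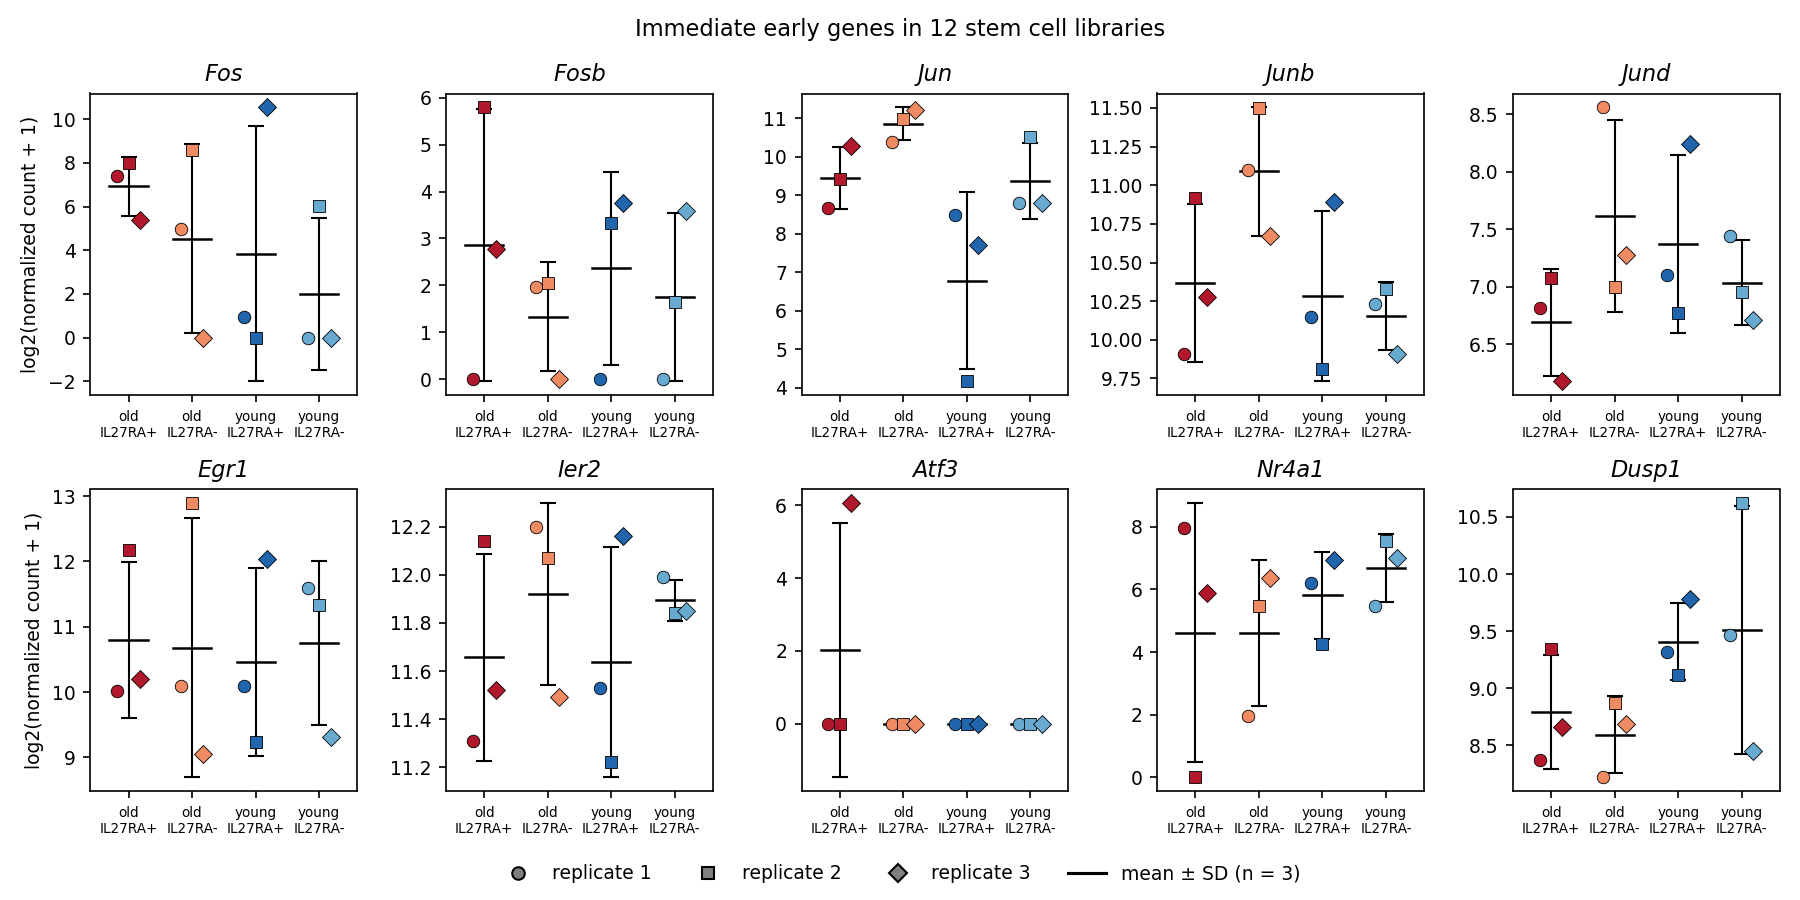
Each panel shows 1 immediate early gene, with log2(normalized count + 1) on the vertical axis and the 4 groups on the horizontal axis, where points are libraries, lines are means and bars are SD (n = 3). Fos runs from 0 to 1492 normalized counts within young IL27RA+ libraries, whereas Ier2 stays between 2386 and 4708 in all 12.

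Between Fos and Fosb, whose proteins bind DNA as partners of JUN proteins, Fos was the more variable mRNA. Fos had 167, 254 and 41 normalized counts in old IL27RA+ replicates 1, 2 and 3 and 30.8, 384 and 0 in old IL27RA- replicates, against 0.94, 0 and 1492 in young IL27RA+ and 0, 64.4 and 0 in young IL27RA- replicates, in the same order of replicates as all values that follow. Every old IL27RA+ library held Fos reads, and the highest value of all came from a young IL27RA+ library, whose group also held libraries with 0 reads and with 1 read. Old and young groups overlapped in both fractions. The old minus young difference averaged over the fractions was 2.80 ± 1.89 (SE; 95% interval -1.24 to 6.85; limma adjusted p = 0.526), with group means of 5.73 in old and 2.92 in young cells. Its IL27RA+ minus IL27RA- difference averaged over the ages was 2.11 ± 1.89 (-1.94 to 6.16; limma adjusted p = 0.858). Both intervals span 0 and are several log2 units wide. For age the value was 1.38 with a pseudocount of 10, 1.79 without old IL27RA- replicate 2 and 4.48 without young IL27RA+ replicate 3, and for IL27RA it was 0.43 without that last library. Within IL27RA+ cells the age difference was 3.09 ± 2.68 (limma adjusted p = 0.827; 1.18 to 6.45 without 1 library), and within young cells the IL27RA difference was 1.82 ± 2.68 (limma adjusted p = 0.879), which turned to -1.53 without young IL27RA+ replicate 3.

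Fosb, a close relative of Fos that is usually induced after it, had 0, 54.6 and 5.86 normalized counts in old IL27RA+ and 2.89, 3.11 and 0 in old IL27RA- libraries, against 0, 9.09 and 12.5 in young IL27RA+ and 0, 2.15 and 10.9 in young IL27RA- libraries. It was at or under 3 reads in 7 of the 12 libraries, and old IL27RA+ replicate 2 alone was above 12.5. The averaged age difference was 0.04 ± 1.21 (limma adjusted p = 0.992) and the averaged IL27RA difference 1.07 ± 1.21 (limma adjusted p = 0.898). Atf3, a stress-induced factor of the same leucine zipper class, had no read in 11 libraries and 56 reads (65.6 normalized counts) in old IL27RA+ replicate 3. A single library of 50 cells thus held all reads of this gene.

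Jun, the AP-1 subunit that also drives its own promoter, had the smallest p of the 9 genes in both averaged comparisons. Jun had 405, 678 and 1239 normalized counts in old IL27RA+ and 1344, 2014 and 2367 in old IL27RA- libraries, against 358, 17 and 207 in young IL27RA+ and 441, 1446 and 447 in young IL27RA- libraries. By group mean the order was old IL27RA- (1909 ± 520), young IL27RA- (778 ± 578), old IL27RA+ (774 ± 425) and young IL27RA+ (194 ± 171; SD, n = 3 each). All 3 old IL27RA+ libraries lay above all 3 young IL27RA+ libraries, whereas 1 young IL27RA- library (1446) lay above the lowest old IL27RA- library. Within each age, every IL27RA+ library lay below every IL27RA- library. Young IL27RA- and old IL27RA+ cells, the neighbours in the middle of that order, overlapped, and no test compared them.

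The averaged age difference of Jun was 2.08 ± 0.61 on the log2 scale (SE; 95% interval 0.78 to 3.38), with means of 10.15 in old and 8.08 in young cells. Its p was 0.00397 before and 0.106 after limma's adjustment over all genes, so Jun did not pass the threshold of 0.05. The averaged IL27RA difference was -1.99 ± 0.61 (-3.29 to -0.69; limma adjusted p = 0.323), with means of 8.12 in IL27RA+ and 10.11 in IL27RA- cells. Within fractions, the age difference was 2.66 ± 0.86 in IL27RA+ cells (limma adjusted p = 0.321) and 1.50 ± 0.86 in IL27RA- cells (limma adjusted p = 0.501). Within ages, the IL27RA difference was -1.41 ± 0.86 in old cells (limma adjusted p = 1) and -2.58 ± 0.86 in young cells (limma adjusted p = 0.438). The difference between these effects, the interaction of age and IL27RA, was 1.17 ± 1.22 (limma adjusted p = 0.96). Young IL27RA+ replicate 2, at 17 normalized counts, lay far below the other libraries, and the age difference in IL27RA+ cells was 1.36 without it (limma adjusted p = 0.677), and the IL27RA difference in young cells -1.27 (limma adjusted p = 0.776). The averaged age difference passed the threshold without young IL27RA+ replicate 1 (2.50, limma adjusted p = 0.0416). Without old IL27RA- replicate 1, the library with the high Igkc count, the averaged age difference of Jun was 2.20 (limma adjusted p = 0.142) and its averaged IL27RA difference -2.11 (limma adjusted p = 0.395).

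Macrophage markers differed between the IL27RA fractions, in which the values of Jun also lay apart. Their sum, over 13 measured of 14 listed genes, was 2399 to 9571 normalized counts in old IL27RA+ libraries, against 1144 to 1568 in old IL27RA-, and 6221 to 9826 in young IL27RA+, against 1763 to 2318 in young IL27RA- libraries. Of 12 tested markers, 4 (Vcam1, C1qb, C1qc and Hmox1) were called higher by limma in IL27RA+ cells in the averaged comparison, and none lower, with 0 called by voom and 3 to 5 without 1 library. In that comparison 0.189% of all genes were called. Marco was at 0 in both old groups and in young IL27RA+ cells, and Emr1 in both IL27RA- groups. All 6 tested erythroid markers (median difference 2.15) and all 6 tested neutrophil and monocyte markers (2.65) had positive IL27RA differences, with none called, and 10 of 12 stem cell markers had negative ones (median -0.18, none called). Of 6 tested megakaryocyte markers, 5 had positive IL27RA differences and 1 a negative one (median 1.18). The negative one was Vwf, carried by megakaryocytes and some stem cells, which was lower in IL27RA+ cells (-1.03 ± 0.16, limma adjusted p = 0.0171). This call of Vwf was lost under at least 1 alternative. With age, Klrb1c, from the list of T and NK cell markers, was higher in old cells (3.53 ± 0.62, limma adjusted p = 0.00808). Only 3 of the 8 genes of that list were measured, and 2 had a positive and 1 a negative averaged age difference. The 3 genes summed to 789 to 1844 normalized counts in old IL27RA+ and 1415 to 2928 in old IL27RA- libraries, against 236 to 404 in young IL27RA+ and 68.2 to 537 in young IL27RA- libraries. Most of the sum in old libraries was Klrb1c itself, with 583 to 1387 in old IL27RA+ and 1395 to 2922 in old IL27RA- libraries, and Cd4 was at 0 in old IL27RA- cells. Vwf was also higher in old cells (0.72 ± 0.16, limma adjusted p = 0.0362) and the macrophage marker Axl lower (-1.54 ± 0.34, limma adjusted p = 0.033), and the calls of Vwf and Axl were each lost under at least 1 alternative. The part of these markers' cells in the differences of Jun and of the other genes was not tested.

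Junb, an AP-1 subunit that activates less strongly than Jun and that restrains proliferation in the mouse myeloid lineage, had 959, 1930 and 1239 normalized counts in old IL27RA+ and 2199, 2904 and 1624 in old IL27RA- libraries, against 1134, 899 and 1894 in young IL27RA+ and 1202, 1290 and 962 in young IL27RA- libraries. All old IL27RA- libraries lay above all young IL27RA- libraries, whereas the IL27RA+ groups overlapped. The age difference was 0.93 ± 0.34 in IL27RA- cells (limma adjusted p = 0.278) and 0.51 ± 0.24 on average (95% interval -0.01 to 1.02; limma adjusted p = 0.343). Its IL27RA difference was -0.30 ± 0.24 on average (limma adjusted p = 0.831) and -0.73 ± 0.34 in old cells (limma adjusted p = 0.93), where 1 IL27RA+ library lay within the IL27RA- range. The interaction was -0.85 ± 0.48 (limma adjusted p = 0.942). In the mouse annotation Junb overlaps Prdx2, and Jun overlaps Junos, on the opposite strand, and no source used here states whether the counting used strand, so reads of such pairs cannot be told apart.

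Jund, the AP-1 subunit that most cells make without a stimulus, had 112, 134 and 71.5 normalized counts in old IL27RA+ and 376, 127 and 154 in old IL27RA- libraries, against 136, 108 and 301 in young IL27RA+ and 173, 124 and 104 in young IL27RA- libraries. The 4 groups overlapped, and only old IL27RA- replicate 1 and young IL27RA+ replicate 3 were above 173. Its averaged age difference was -0.05 ± 0.50 (limma adjusted p = 0.979) and its averaged IL27RA difference -0.29 ± 0.50 (limma adjusted p = 0.938). Within old cells the IL27RA difference was -0.92 ± 0.71 (limma adjusted p = 1), and the interaction was -1.25 ± 1.00 (limma adjusted p = 0.942).

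Junb was the largest share of the summed mRNA of Fos, Fosb, Jun, Junb and Jund, per kilobase, in 11 of the 12 libraries. It made up 60.9 ± 6.35% in old IL27RA+, 54.7 ± 7.7% in old IL27RA-, 68.2 ± 18.4% in young IL27RA+ and 61.9 ± 10.1% in young IL27RA- libraries (SD, n = 3 each). Jun made up 25 ± 12.4%, 34.6 ± 11.9%, 7.1 ± 8.11% and 27.1 ± 11.9% in the same order of groups. Every old IL27RA+ library (17 to 39.3%) was above every young IL27RA+ library (1.16 to 16.3%) in the share of Jun, but the nearest values are close. The share of Fos reached 37.2% in young IL27RA+ replicate 3 and was at most 10.4% in the other 11 libraries. The ratio of Jun to Junb normalized counts was 0.316, 0.019 and 0.109 in young IL27RA+ libraries and was at or above 0.351 in the 9 others, with values over 1 in old IL27RA- replicate 3 (1.46) and young IL27RA- replicate 2 (1.12).

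**Figure D2:**
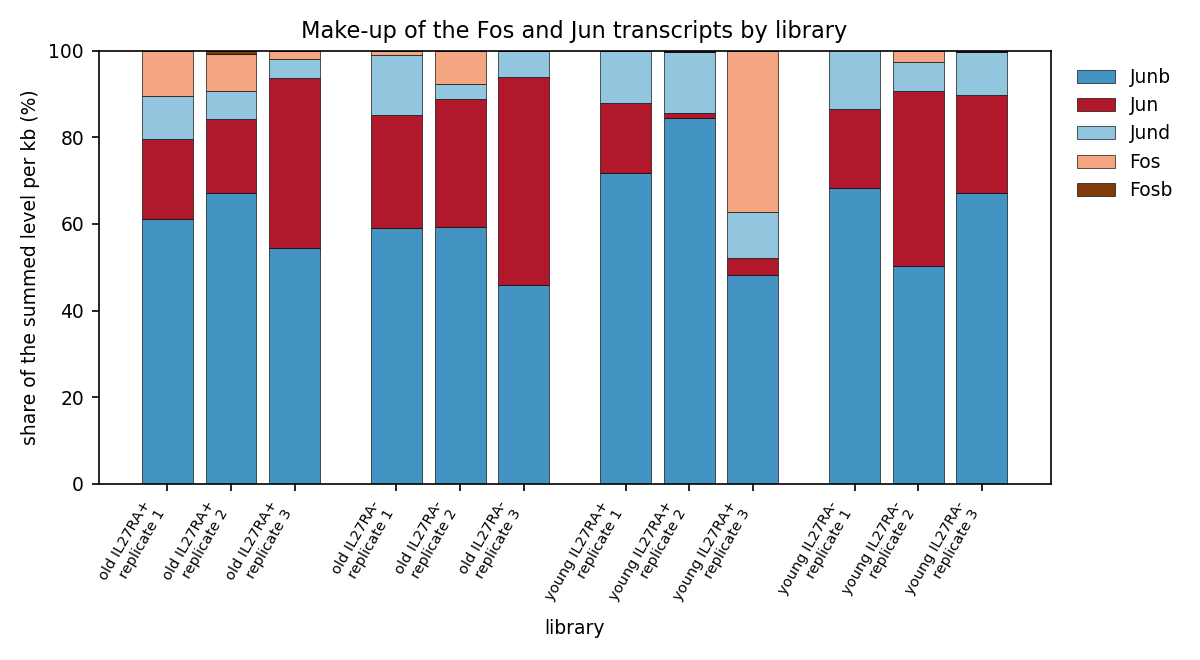
Stacked bars give each library's share, in percent, of the summed normalized counts per kilobase of Fos, Fosb, Jun, Junb and Jund, with libraries grouped along the horizontal axis. Junb is the largest share in 11 of 12 libraries, and the Fos share of 37.2% stands out in young IL27RA+ replicate 3.

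Egr1 varied most for its level. Egr1 had 1040, 4598 and 1178 normalized counts in old IL27RA+ and 1100, 7567 and 529 in old IL27RA- libraries, against 1097, 603 and 4205 in young IL27RA+ and 3093, 2579 and 636 in young IL27RA- libraries. Each group held at least 1 library several times above its lowest, and all groups overlapped. The averaged age difference was 0.14 ± 0.66 (95% interval -1.27 to 1.54; limma adjusted p = 0.952) and the averaged IL27RA difference -0.08 ± 0.66 (-1.49 to 1.32; limma adjusted p = 0.989). Nr4a1, an orphan nuclear receptor induced by many of the same signals, had 248, 0 and 58.6 normalized counts in old IL27RA+ and 2.89, 43.6 and 81.6 in old IL27RA- libraries, against 73.3, 18.2 and 123 in young IL27RA+ and 43.8, 186 and 128 in young IL27RA- libraries. Both its highest and its lowest value came from old IL27RA+ cells. Its averaged differences were -1.64 ± 1.26 for age (limma adjusted p = 0.595) and -0.43 ± 1.26 for IL27RA (limma adjusted p = 0.969). The age difference was -0.48 without old IL27RA+ replicate 2, -2.47 without old IL27RA+ replicate 1 and -0.89 with a pseudocount of 10.

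Ier2 was the steadiest. It had 2533, 4519 and 2934 normalized counts in old IL27RA+ and 4708, 4295 and 2878 in old IL27RA- libraries, against 2954, 2386 and 4560 in young IL27RA+ and 4056, 3657 and 3685 in young IL27RA- libraries. The averaged age difference was 0.03 ± 0.20 with a 95% interval of -0.40 to 0.45 (limma adjusted p = 0.973), the narrowest of the 9 genes, and the averaged IL27RA difference was -0.26 ± 0.20 (-0.69 to 0.17; limma adjusted p = 0.818), with -0.26 ± 0.28 in young cells (limma adjusted p = 0.838). Dusp1, the inhibitor among these genes, had 329, 648 and 404 normalized counts in old IL27RA+ and 298, 466 and 413 in old IL27RA- libraries, against 639, 557 and 880 in young IL27RA+ and 709, 1571 and 349 in young IL27RA- libraries. In each fraction 1 library broke the separation, old IL27RA+ replicate 2 among the positive and young IL27RA- replicate 3 among the negative cells. Its averaged age difference was -0.77 ± 0.35 (95% interval -1.52 to -0.02; limma adjusted p = 0.319), with -0.62 ± 0.50 in IL27RA+ cells (limma adjusted p = 0.803) and -0.92 ± 0.50 in IL27RA- cells (limma adjusted p = 0.472). The averaged IL27RA difference was 0.05 ± 0.35 (limma adjusted p = 0.989). In the annotation Dusp1 overlaps 4 other genes, 2 of them on its own strand.

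Counted together, none of the 9 genes passed limma's adjusted threshold in the averaged age comparison, where 1.85% of all genes did. None passed in old against young IL27RA+ cells (0.426% of all genes), in old against young IL27RA- cells (0.669%), in the averaged IL27RA comparison (0.189%), in IL27RA+ against IL27RA- cells of old mice (0.0203%) or of young mice (0.0203%), or in the interaction (0%). Each of these shares corresponds to fewer than 1 called gene in 9. At an unadjusted p under 0.05, limma gave 2 of the 9 for the averaged age comparison (Jun and Dusp1; 15.1% of all genes), 1 in IL27RA+ cells (Jun; 8.88%), 1 in IL27RA- cells (Junb; 12.5%), 1 for the averaged IL27RA comparison (Jun; 7.98%), 0 in old cells (5.38%), 1 in young cells (Jun; 8.23%) and 0 for the interaction (5.19%). Limma voom on the recovered reads called 0 of the 9 in each of the 7 comparisons. Groups did not overlap for 1 of 9 genes in old against young IL27RA+ cells (16.9% of all genes), 1 in old against young IL27RA- cells (14.5%), 1 in IL27RA+ against IL27RA- cells of old mice (12.6%) and 1 of young mice (9.78%), where 3 of the 4 were Jun. The median difference of the 9 was 0.04 for age, against 0.06 over all genes, and -0.26 for IL27RA, against 0.05 over all genes.

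**Figure D3:**
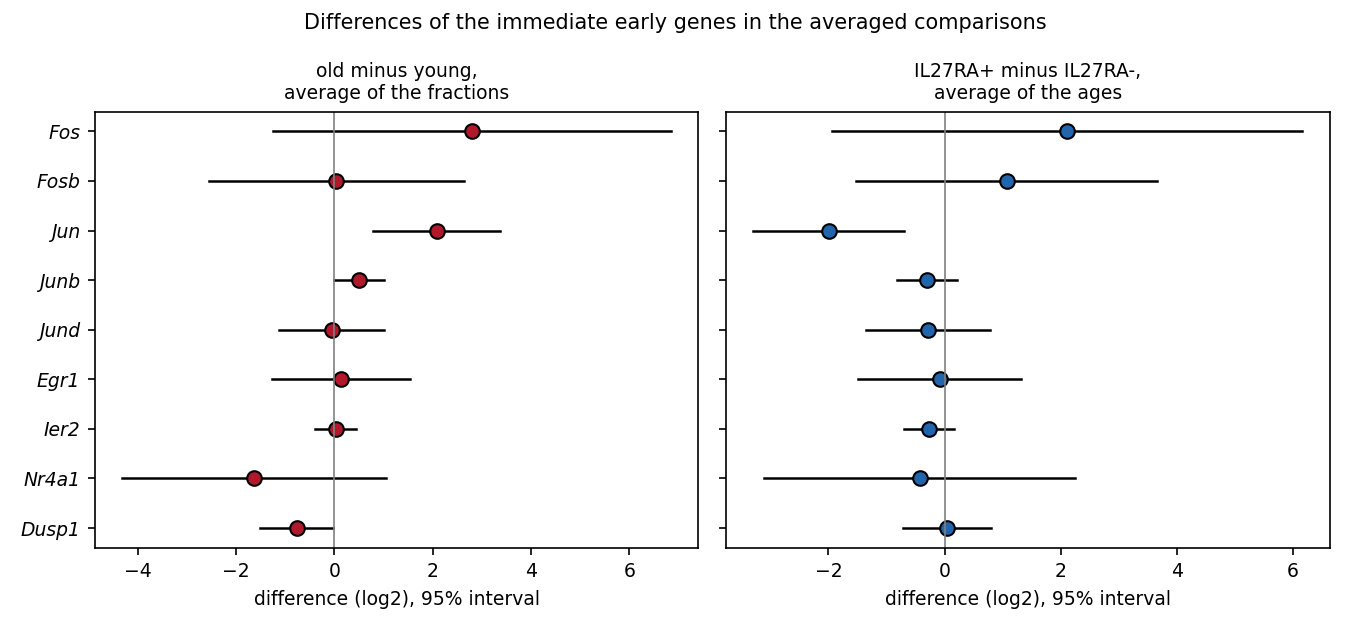
Points are log2 differences averaged over the fractions (left, old minus young) or the ages (right, IL27RA+ minus IL27RA-) for the 9 genes past the filter, with 95% intervals from limma as lines. Jun lies at 2.08 on the left and -1.99 on the right, and the intervals of Fos, Fosb and Nr4a1 are several log2 units wide.

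The spread between libraries of a group was large for some of these genes and ordinary for others. On the log2 scale the within-group SD of Egr1 was 1.50, against 0.37 for the trend over all genes at its level, a ratio of 4.02. Jun stood at 1.33 against 0.56 (2.38 times), Fos at 4.08 against 1.90 (2.15 times) and Nr4a1 at 2.53 against 1.64 (1.54 times). Egr1, Jun and Fos lay above the range that holds the 5th to 95th percentile of genes of their level (up to 0.71, 0.91 and 3.33). In fits added after the data were seen, the SD of Jun was 0.75 without young IL27RA+ replicate 2. That of Fos was 3.06 without young IL27RA+ replicate 3. Both values lie inside that range, but the range is from the fit of all 12 libraries. Each library left out was the one farthest from its group mean for that gene, which lowers the SD. Egr1 stayed at 1.23 to 1.59 without any 1 library. Ier2 (0.38 against 0.31), Junb (0.44 against 0.39), Dusp1 (0.64 against 0.57) and Fosb (2.07 against 2.13) were near the trend, and Jund was below it (0.64 against 1.08).

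**Figure D4:**
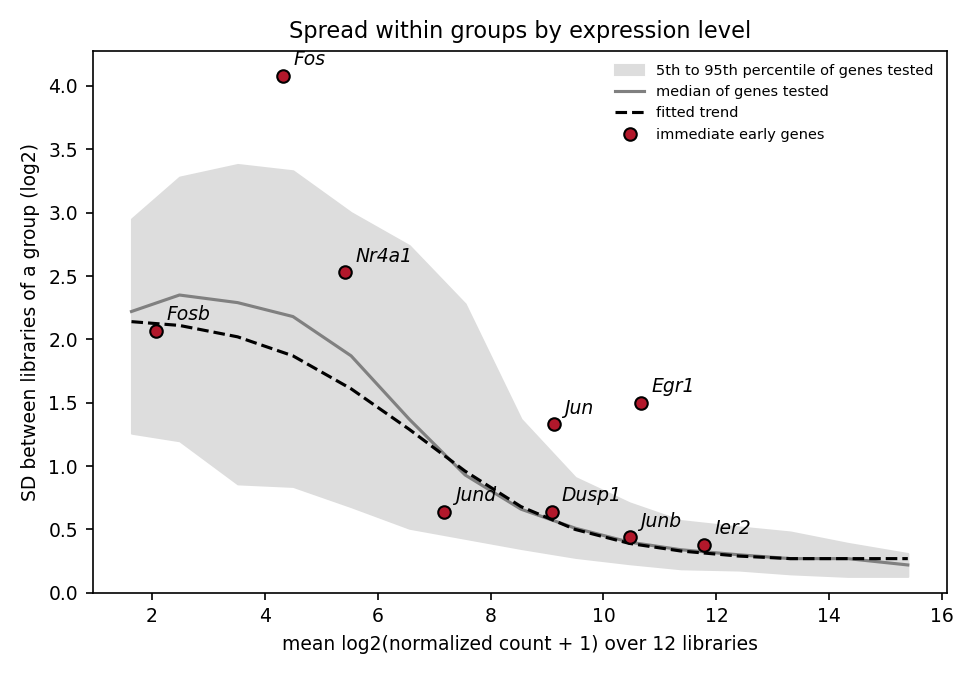
The within-group SD (log2) is plotted against mean log2(normalized count + 1) for the 9 genes past the filter (points), with the median and the 5th to 95th percentile of all tested genes in bins of level (grey) and limma's trend (dashed). Egr1, at a mean of 10.67 and an SD of 1.50, lies well above the grey band, as do Jun and Fos.

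The libraries in which these genes were high were partly the same. Fos was highest in old IL27RA+ replicate 2, old IL27RA- replicate 2, young IL27RA+ replicate 3 and young IL27RA- replicate 2. Junb and Dusp1 were highest in those same 4 libraries, Egr1 and Fosb in 3 of them, Jund, Ier2 and Nr4a1 in 2, and Jun in 1. Some margins were small. Junb had 1290 normalized counts in young IL27RA- replicate 2 against 1202 in replicate 1. Dusp1 had 466 in old IL27RA- replicate 2 against 413 in replicate 3. For Fosb, old IL27RA- replicates 1 and 2 each held 3 reads, and replicate 2 was higher (3.11 against 2.89) only by the size factor. Sharing all 4 with Fos held for 2 of the 8 other genes and for 1.17% of all genes tested. Sharing at least 3 held for 4 of the 8, with Fosb counted through that tie in reads, and for 10.3% of all genes. Fos was set as the yardstick after its values were seen, so these shares are a description. In old IL27RA- replicate 2, Fos lay 4.06, Egr1 2.21, Junb 0.41 and Dusp1 0.27 above the group mean on the log2 scale. In young IL27RA+ replicate 3 the deviations were 6.71 for Fos, 1.58 for Egr1, 0.60 for Junb and 0.37 for Dusp1, whereas Jun there was 0.91 above its mean and below young IL27RA+ replicate 1.

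**Figure D5:**
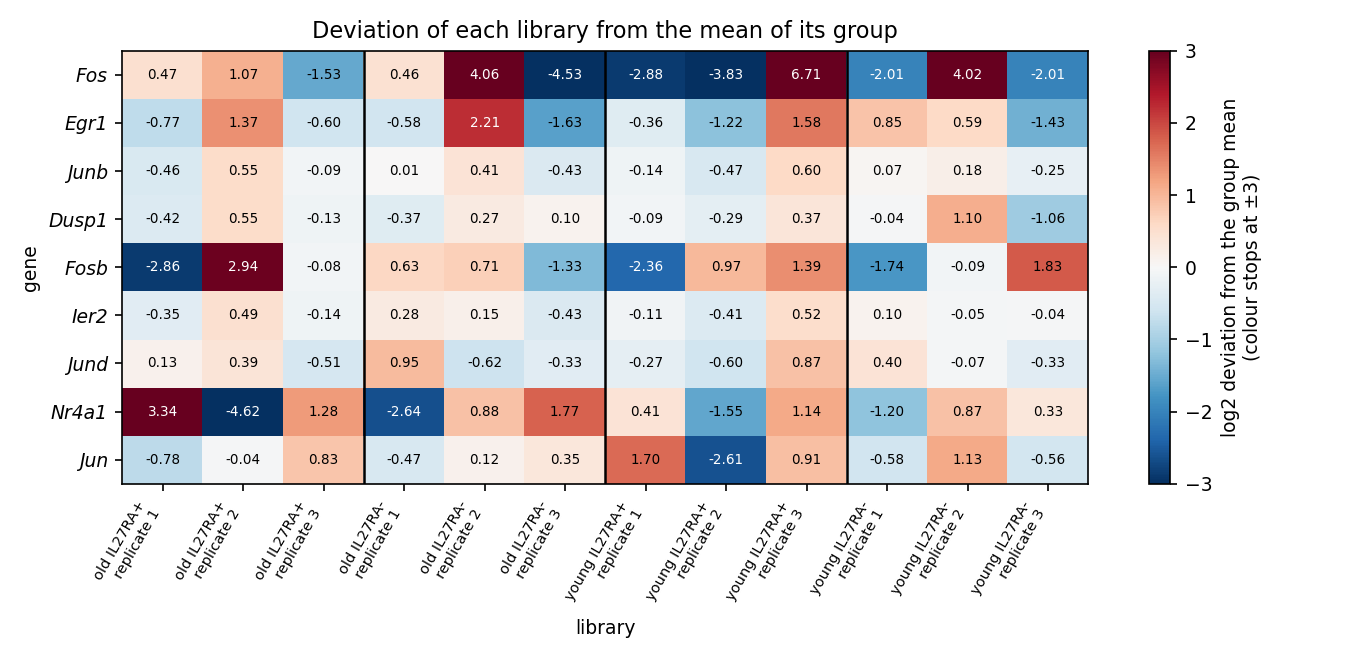
Rows are the 9 genes past the filter and columns the 12 libraries, and each cell gives the log2 deviation from the mean of the library's group (colours stop at 3 on either side). Fos, Egr1, Junb and Dusp1 lie above the group mean together in the second replicates of both old groups and in young IL27RA+ replicate 3, where Fos reaches 6.71. The cells of Junb and Dusp1 are pale there, at 0.27 to 0.60.

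Averaged over the 9 genes, the deviation from each gene's mean over 12 libraries was 0.04, 0.52 and 0.12 in old IL27RA+, -0.07, 1.03 and -0.60 in old IL27RA-, -0.70, -1.35 and 1.33 in young IL27RA+ and -0.57, 0.74 and -0.50 in young IL27RA- libraries. The 4 highest values belong to the 4 libraries in which Fos peaked, but Fos is 1 of the 9 and has the widest log2 range, so much of this is built in. The profile correlated with Fos at r = 0.92, with Egr1 at 0.79, with Junb at 0.66 and with Nr4a1 at 0.04. Mitochondrially encoded genes took 5.63%, 5.76%, 4.71% and 4.58% of reads in those 4 libraries, within the range of 4.01% to 6.8% over all 12. Heat shock genes summed to 109965, 113674, 80317 and 116751 normalized counts in them, against 90422 to 190999 in the other 8. The heat shock sum of young IL27RA+ replicate 3 was the lowest of all 12 libraries, and the rest of these 4 lay within the range of the other 8. Whether stress or handling had a part in these peaks was not tested. Of 12106 named genes compared over the 12 libraries, the 5 most like this average profile were Tssk4 (r = 0.88), Il1rapl1 (r = 0.85), Ndfip2 (r = 0.84), Ncs1 (r = 0.83) and Ece1 (r = 0.82), which is a description over libraries that share depth and amplification. As the profile mostly follows Fos, Tssk4 (0 to 130 normalized counts) and Il1rapl1 (0 to 76.5) are low genes that are at 0 in several of the libraries where Fos is. Ece1, the endothelin-converting enzyme, had 1578, 1413 and 1608 normalized counts in old IL27RA+ and 1518, 2617 and 1624 in old IL27RA- libraries, against 1561, 820 and 2264 in young IL27RA+ and 1398, 1718 and 1104 in young IL27RA- libraries.

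Other genes of the pathway showed few calls, and all calls were in age comparisons. Among 29 tested of 32 other immediate early genes, 2 were called higher in old cells on average and 0 lower, and 1.85% of all genes were called in that comparison. Their median difference was 0.30, against 0.06 over all genes, and 0 to 3 were called without 1 library. Socs3, a cytokine-induced inhibitor of JAK and STAT signalling, had 578, 1640 and 772 normalized counts in old IL27RA+ and 1286, 1461 and 2861 in old IL27RA- libraries, against 120, 60.2 and 285 in young IL27RA+ and 213, 7.16 and 205 in young IL27RA- libraries. Plk2, a polo-like kinase, had 1403, 2628 and 1892 in old IL27RA+ and 2299, 5778 and 4647 in old IL27RA- libraries, against 499, 541 and 262 in young IL27RA+ and 1003, 75.1 and 1295 in young IL27RA- libraries. For both genes every old library lay above every young library of its fraction. Old and young groups did not overlap, in either direction, for 16.9% of all genes in IL27RA+ cells and 14.5% in IL27RA- cells. The averaged age differences were 3.72 ± 0.71 for Socs3 (limma adjusted p = 0.0152) and 2.65 ± 0.55 for Plk2 (limma adjusted p = 0.0248). Plk2 lost its call without any 1 of 5 libraries (limma adjusted p = 0.0617 to 0.0748: old IL27RA+ replicates 2 and 3, old IL27RA- replicates 2 and 3, young IL27RA+ replicate 3), and Socs3 without old IL27RA+ replicate 2 (0.0532).

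Among 19 other members of the AP-1 family, Maf, a large leucine zipper factor, was the 1 gene called in an averaged comparison, with an age difference of 3.52 ± 0.83 (limma adjusted p = 0.0432) and of 6.37 ± 1.17 in IL27RA- cells (limma adjusted p = 0.0229). Of all genes, 1.85% were called for age on average and 0.669% in IL27RA- cells. Maf had 432, 807 and 623 normalized counts in old IL27RA+ and 919, 905 and 673 in old IL27RA- libraries, against 656, 197 and 410 in young IL27RA+ and 103, 8.59 and 0 in young IL27RA- libraries. Its IL27RA+ groups overlapped. Macrophages also express Maf. In IL27RA- cells 7 of their 12 tested markers had a positive and 4 a negative age difference (median 0.14, none called), and their part in the difference of Maf was not tested. The averaged call was lost without any 1 of 10 libraries, all but young IL27RA- replicates 1 and 3 (limma adjusted p = 0.0547 to 0.112), and the call in IL27RA- cells without any 1 of the 3 old IL27RA- libraries (limma adjusted p = 0.0779 to 0.0872). Among 26 genes of the MAP kinase cascade and of the SRF, ELK and CREB factors, Mapk11, which codes for the kinase p38 beta, was the 1 called gene (for age on average, 1.85% of all genes). It had 169, 130 and 204 normalized counts in old IL27RA+ and 43.3, 50.9 and 212 in old IL27RA- libraries, against 0, 0 and 0 in young IL27RA+ and 54.9, 0 and 0 in young IL27RA- libraries. The averaged age difference of Mapk11 was 5.87 ± 1.08 (limma adjusted p = 0.0118), a fitted value that depends on the pseudocount. Over 20 alternatives it ran from 3.20 to 6.84, and the call was kept in each (limma adjusted p = 0.00116 to 0.0404). The lists of other EGR and NR4A genes, MAP kinase phosphatases and heat shock genes had no called gene in any of the 7 comparisons. Nab2, a corepressor that binds Egr1, had an averaged age difference of 0.56 ± 0.27 (limma adjusted p = 0.347), and Nr4a2, the nearest relative of Nr4a1, one of 0.51 ± 0.67 (limma adjusted p = 0.789). Dusp3, a further phosphatase of MAP kinases, had 1.00 ± 0.35 (limma adjusted p = 0.191), and Spred2, an inhibitor of the same cascade, -0.95 ± 0.41 (limma adjusted p = 0.294). Of 12 tested heat shock genes, the factor Hsf1 had -0.63 ± 0.24 (limma adjusted p = 0.22) for age, and the chaperone Dnajb1 -0.56 ± 0.29 (limma adjusted p = 0.67) for IL27RA.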

How the data were processed

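RNA was measured in 12 libraries of 50 sorted cells, 3 in each of 4 groups. The submitters' processing notes name TopHat2 2.1.1, FastQC 0.11.5, DESeq2 and HTSeq without saying what each did. The genome build and the strand setting are likewise not given in the sources used here. The deposited values are log2 of normalized counts plus 1, and whole reads were recovered from 100% of them (tolerance 0.001 reads). One library's deposited column holds a damaged line, and its remaining values are log2 like the rest. Of 20473 lines, 1 damaged line and 15 repeats were left out, which left 20457 genes.

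The log2 values of all 12 libraries were fitted by limma 3.58.1 in R 4.3.3, using a variance trend and 1 mean per group, 8 residual and 6.58 prior degrees of freedom. Genes entered with at least 3 of 12 libraries at 10 or more on the linear scale (14803 genes), and p-values were adjusted over all of them by the Benjamini-Hochberg method at 0.05. Comparisons were old minus young and IL27RA+ minus IL27RA- within strata and on average, and their interaction. The members and the gene lists were chosen with earlier results of these data known. Named genes were all 10 immediate early genes, in the averaged comparisons with every difference and elsewhere with the 3 smallest p-values. From each pathway list they were the called genes or, with none called, the 2 with the smallest p. They also include the 5 genes most like the mean profile. Exon lengths and overlaps came from GENCODE and promoters from RefSeq, matched by identifier or symbol. The fit was tested on simulated data.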

Additional observations from a re-analysis of the deposited data

How the results depend on the processing

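Of 33 differences of the immediate early genes, recomputed under up to 21 alternatives (670 values in all), 632 kept their direction and their side of the threshold, 37 changed sign and 1 passed the threshold. That 1 was Jun in the averaged age comparison, and it raised the number of genes called to 1 without young IL27RA+ replicate 1. Leaving out 1 library at a time thus gave counts of 0 to 1 there, and the other 143 of 144 recomputed counts were 0. As limma called none of the 33 differences, every sign change was in an uncalled one, and the cause of these changes was not tested. With total-count scaling the averaged age difference was -0.01 for Fosb and -0.04 for Ier2, and with voom it was 0.02 for Jund. Leaving out 1 library at a time, the averaged age difference ran from -0.69 to 0.76 for Fosb, from -0.42 to 0.54 for Egr1, from -0.10 to 0.16 for Ier2 and from -0.29 to 0.17 for Jund. In the same way the averaged IL27RA difference ran from -0.49 to 0.47 for Egr1, from -1.26 to 0.73 for Nr4a1 and from -0.22 to 0.32 for Dusp1. The IL27RA difference of Fos in young cells ran from -1.53 to 3.83 and the interaction of Jun from -0.14 to 2.02. The averaged age difference of Jun stayed between 1.43 and 2.50 and its averaged IL27RA difference between -2.42 and -1.34 over all alternatives. With a filter on a mean of at least 50, Fosb was not tested. The averaged age call of Maf was lost with no filter (limma adjusted p = 0.0659), and its call in IL27RA- cells with voom (0.0502) and with only the groups compared (0.352).

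Over all genes, the number called for age was 274 and ran from 140 to 431 without 1 library. In IL27RA+ cells it was 63, against 13 with voom, 138 with library weights and 4 to 96 without 1 library. In IL27RA- cells it was 99, against 0 with only the groups compared and 31 to 271 without 1 library. For the averaged IL27RA comparison it was 28, against 7 with voom, 45 with library weights and 6 to 96 without 1 library. Between the fractions of old cells it was 3, against 86 with library weights, 29 with only the groups compared and 1 to 24 without 1 library, and between those of young cells 3, against 0 to 50 without 1 library. Same-numbered libraries were not paired. The correlation of their deviations ran from -0.054 to 0.106 over 18 pairs, most of which join different ages. Within an age it was 0.031, 0.004 and 0.096 in old and 0.106, 0.028 and 0.017 in young cells, against -0.068 to 0.038 for other numbers. Of 12 libraries, 7 were closest to a library of their own number, and the labels do not say whether these share mice. A fit with the replicate block called 0 of the immediate early genes in every comparison, 307 genes for age on average and 20 for IL27RA. That block joined libraries of the same number across both ages, so it cannot check whether the fractions of an age share mice. With the block, the other immediate early genes gave 3 calls upward and 1 downward with age, against 2 and 0 without it. With 3 libraries of 50 cells a group, changes of Fos, Fosb and Nr4a1 of less than several log2 units were not detectable at this spread.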
